A study of Mus musculus with 16 samples.

Results

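Open chromatin was examined around 8 genes whose products restrain inflammatory signalling in macrophages: Il10, Il4ra, Socs1, Socs3, Dusp1, Dusp2, Zfp36 and Bcl3. The peaks of 4 lists were merged where they overlapped by at least 1 bp, and a region was kept for a gene when its midpoint lay within 100 kb of the 5′ end of that gene. This gave 108 of 37648 merged regions, between 5 (Dusp2) and 19 (Zfp36) per gene, against a median of 7 regions over protein-coding genes with any region. Regions were assigned to a gene by distance alone. A region exists only where a peak was called in at least 1 of the 4 lists, and the genes were chosen with earlier results of these data known. At the edge of the window, the farthest region kept was at -99431 bp from Bcl3, and the nearest one left out was at -100998 bp from Dusp1 (chr17:26662953-26663301).

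The data were ATAC-seq, which marks accessible DNA by the insertion of a transposase, from bone-marrow-derived macrophages of wild-type C57BL/6J mice. Cells were given the liver X receptor (LXR) agonist T0901317 (T0, 500 nM) or DMSO vehicle (Veh) for 3 h, and part of them then received lipopolysaccharide (LPS, 10 ng/mL) for 2 h in the same medium. The groups are called Veh, T0, LPS and T0-LPS, with 4 libraries of 50000 cells each. All groups shared serum-free medium with L-cell conditioned medium and DMSO or agonist in DMSO, and the unstimulated cells were harvested before the LPS period, so a comparison with LPS against one without also compares 2 culture times and the 2 cannot be told apart. The 4 libraries of a group were pooled into 1 peak list, and only peaks at macrophage enhancers were kept, so there was no spread between replicates, no test was possible, and every difference is between lists. Intervals below cover counting error only and treat regions as independent, although regions of 1 gene are neighbours.

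LPS is sensed by TLR4, which activates NF-kB, MAP kinases and, through secreted cytokines, JAK-STAT signalling. The same pathways switch on their own inhibitors. IL-10, encoded by Il10, is a cytokine that quietens macrophages through STAT3, and Il4ra encodes the receptor chain shared by IL-4 and IL-13, which signals through STAT6. Socs1 and Socs3 encode inhibitors of JAK kinases and cytokine receptors, Dusp1 and Dusp2 encode phosphatases that inactivate MAP kinases, Zfp36 encodes tristetraprolin, which speeds the decay of AU-rich inflammatory mRNAs, and Bcl3 encodes a nuclear IkB protein that works with p50 and p52 NF-kB dimers. LXR is a sterol-sensing nuclear receptor that binds DNA with RXR at direct repeats spaced by 4 bases (DR4).

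The sequences below are the 200-base windows, centred on the highest-ranked peak, of the regions around which the LPS results turn. The first set holds regions with a peak in LPS and none in Veh that carry an NF-kB consensus match, and is shown because NF-kB is the main factor activated by LPS. All are the plus strand of GRCm38 (mm10) from RefSeq, and none reaches an annotated UTR. Names give the distance in bp of the region midpoint from the 5′ end of the gene, negative for upstream. Capitals mark matches, on either strand, to the consensus motifs searched, apart from C/EBP, and runs of capitals can join motifs that overlap.
Il10 -4304 bp (chr1:131015442-131015641): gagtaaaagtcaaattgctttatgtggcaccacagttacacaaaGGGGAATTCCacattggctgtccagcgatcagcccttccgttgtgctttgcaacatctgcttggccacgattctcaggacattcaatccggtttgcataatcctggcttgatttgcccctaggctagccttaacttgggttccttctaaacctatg
Il10 +30372 bp (chr1:131050118-131050317): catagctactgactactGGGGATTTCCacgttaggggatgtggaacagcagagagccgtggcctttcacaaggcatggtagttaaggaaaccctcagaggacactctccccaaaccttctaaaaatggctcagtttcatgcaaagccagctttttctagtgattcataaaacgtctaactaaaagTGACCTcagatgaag
Zfp36 -64530 bp (chr7:28444693-28444892): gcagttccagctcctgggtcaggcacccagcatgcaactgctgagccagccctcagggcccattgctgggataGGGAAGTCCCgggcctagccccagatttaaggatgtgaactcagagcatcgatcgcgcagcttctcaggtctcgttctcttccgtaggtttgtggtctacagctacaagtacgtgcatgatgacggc
Bcl3 +18865 bp (chr7:19803806-19804005): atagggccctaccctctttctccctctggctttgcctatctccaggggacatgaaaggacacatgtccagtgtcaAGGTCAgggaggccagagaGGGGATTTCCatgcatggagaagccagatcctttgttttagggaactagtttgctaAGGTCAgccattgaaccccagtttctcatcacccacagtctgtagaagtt
Il4ra +55880 bp (chr7:125607901-125608100): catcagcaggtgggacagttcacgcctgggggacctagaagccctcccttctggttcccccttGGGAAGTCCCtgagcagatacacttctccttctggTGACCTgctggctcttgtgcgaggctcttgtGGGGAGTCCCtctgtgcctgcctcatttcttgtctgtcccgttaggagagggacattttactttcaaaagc
In Il10 -4304 and Zfp36 -64530 the NF-kB match is the only run in capitals. Il10 +30372, Bcl3 +18865 and Il4ra +55880 also hold AGGTCA, the half-site of many nuclear receptors, or its reverse complement TGACCT.

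The second set holds regions whose peak ranked at least 20 percentile points higher in LPS than in Veh and that carry an NF-kB match.
Bcl3 -22015 bp (chr7:19844686-19844885): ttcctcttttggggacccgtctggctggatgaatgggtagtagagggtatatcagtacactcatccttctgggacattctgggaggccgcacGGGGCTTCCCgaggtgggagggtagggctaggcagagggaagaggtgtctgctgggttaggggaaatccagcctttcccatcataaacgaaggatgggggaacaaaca
Bcl3 +5117 bp (chr7:19817521-19817720): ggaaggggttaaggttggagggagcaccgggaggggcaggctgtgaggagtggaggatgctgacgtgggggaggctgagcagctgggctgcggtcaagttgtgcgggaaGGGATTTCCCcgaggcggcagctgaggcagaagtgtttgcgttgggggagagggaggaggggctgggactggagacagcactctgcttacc
Zfp36 -1807 bp (chr7:28381954-28382153): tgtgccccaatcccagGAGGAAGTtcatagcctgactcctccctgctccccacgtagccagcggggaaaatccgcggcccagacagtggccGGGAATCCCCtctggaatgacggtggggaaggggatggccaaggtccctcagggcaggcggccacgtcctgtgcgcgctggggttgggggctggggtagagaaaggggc
Dusp2 -721 bp (chr2:127335339-127335538): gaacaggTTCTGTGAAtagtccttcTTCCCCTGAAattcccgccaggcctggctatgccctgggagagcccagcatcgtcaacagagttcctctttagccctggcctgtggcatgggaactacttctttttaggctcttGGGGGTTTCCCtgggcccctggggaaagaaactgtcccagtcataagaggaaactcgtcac
Zfp36 -1807 also holds the PU.1 word GAGGAAGT, and Dusp2 -721 a STAT word (TTCNNNGAA) beside a STAT6-type match. A pair of Socs3 regions completes the sequences: -8005, the highest-ranked region found with LPS and not with Veh, and +9992, which holds 1 of the 3 DR4 matches among the 108 regions.
Socs3 -8005 bp (chr11:117977953-117978152): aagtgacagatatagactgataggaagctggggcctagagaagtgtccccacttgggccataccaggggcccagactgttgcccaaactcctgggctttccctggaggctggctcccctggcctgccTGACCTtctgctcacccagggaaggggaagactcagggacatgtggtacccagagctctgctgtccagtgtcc
Socs3 +9992 bp (chr11:117959950-117960149): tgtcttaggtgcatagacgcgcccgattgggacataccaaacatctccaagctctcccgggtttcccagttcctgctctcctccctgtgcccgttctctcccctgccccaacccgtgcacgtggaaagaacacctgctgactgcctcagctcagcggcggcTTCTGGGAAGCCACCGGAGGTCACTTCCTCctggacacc
In Socs3 +9992 the long run of capitals at the 3′ end joins the DR4 match, a half-site and PU.1 on the minus strand, and the run starts with a STAT word. No NF-kB match lies in either Socs3 window.

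The lists held 35551 (Veh), 29839 (T0), 33181 (LPS) and 31085 (T0-LPS) peaks, which is between 65.3% and 73.0% of the highest peak number in each list. Promoters of 7 macrophage marker genes had a peak within 1 kb in 7, 6, 7 and 6 cases in the order Veh, T0, LPS and T0-LPS, against 0 of 5 T cell genes in every list, 1 or 2 of 5 B cell genes, 1 of 5 neutrophil genes and at most 1 of 5 fibroblast genes. Since only peaks at macrophage enhancers were kept, these counts cannot show which cells were present. The score, in the fifth column of the lists, grows with the strength of a peak, and is given below as its percentile within the list, from 0 for the weakest to 100 for the strongest. Where weak peaks are missing from a list, as in T0, the others stand lower within it, so an unaltered peak can have a lower percentile there.

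Of the 108 regions, 95 had a peak in Veh and 79 in T0, against 100 in LPS and 93 in T0-LPS. A peak in all 4 lists was found at 76 (70.4%), against 70.2% of all regions. The midpoint lay in a UTR at 12 regions, in an intron at 42 and between genes at 54, and 34 (31.5%, against 33.9% of all) lay within 1 kb of a protein-coding start. The member was the gene with the nearest protein-coding start at 46 of the 108, so most of the regions also lie near other genes, such as Mapkapk2 beyond Il10, Pgs1 upstream of Socs3 and Il21r downstream of Il4ra.

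**Figure D1:**
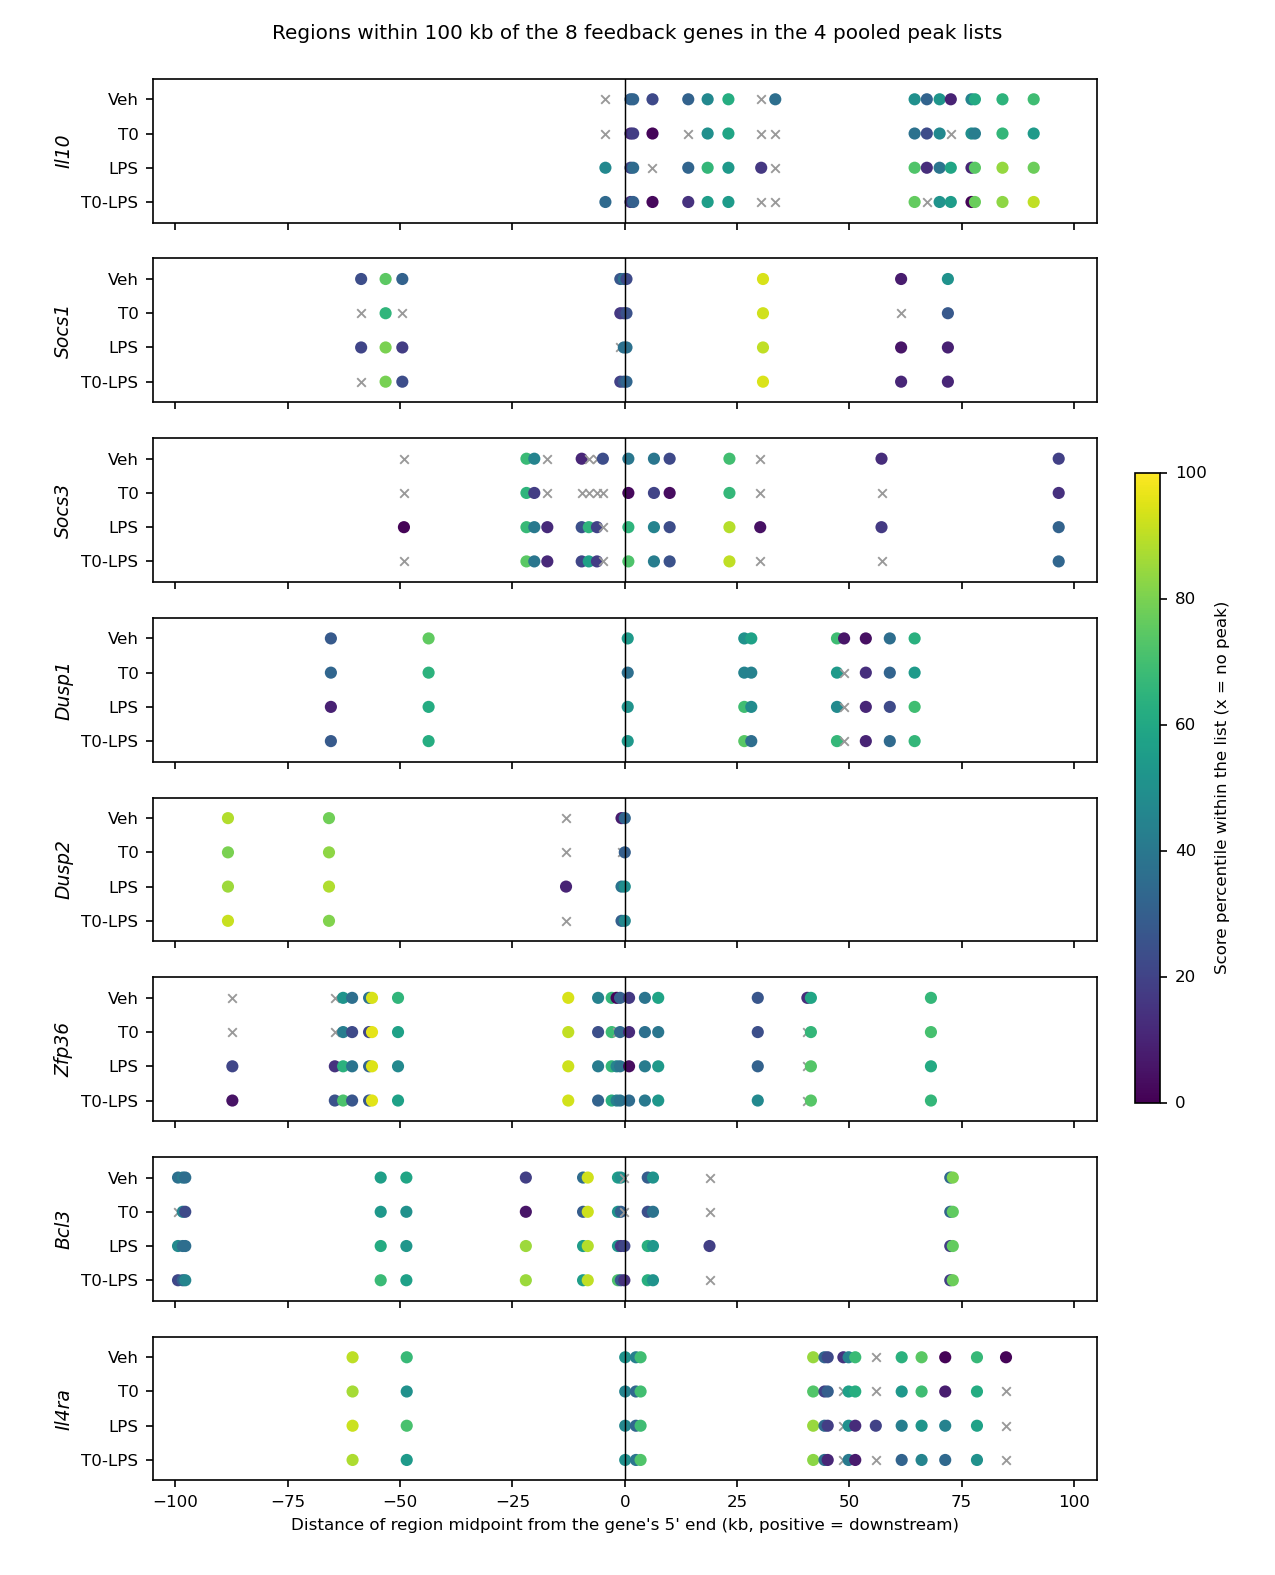
Map of the 108 regions around the 8 genes, 1 panel per gene, with the distance of the region midpoint from the 5′ end of the gene (kb, positive downstream) on the x axis and the 4 pooled lists on the y axis. Circles are peaks, coloured by score percentile within the list, and crosses mark regions without a peak in that list. Crosses cluster in the Veh and T0 rows upstream of Socs3, and Dusp1 has 1 region that is not in all 4 lists.

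LPS-opened regions (a peak in LPS, none in Veh) were found around 6 of the 8 genes. They numbered 13 of 100 regions with an LPS peak, which is 13.0% (95% Wilson interval 7.76 to 21) against 6.14% of all regions. Socs3 had 5, Il10, Zfp36 and Bcl3 had 2 each, Dusp2 and Il4ra had 1 each, and Socs1 and Dusp1 had none. Without Socs3, 8 of 86 (9.30%, interval 4.79 to 17.3) were LPS-opened, an interval that holds the share of all regions. The 6 of 8 genes (75%, interval 40.9 to 92.9) compare with 29.5% of protein-coding genes with any region. Genes with many regions have more chances: the share was 38.2% among genes with 5 to 19 regions and 67.5% among those with 15 to 19, a class that holds 5 of the 8.

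At Il10, the LPS-opened region at -4304 bp stood at percentile 46.7 in LPS and 34.2 in T0-LPS, with no peak in Veh or T0. Peaks carry running numbers along each chromosome, and gaps in them were taken to be called peaks that the enhancer filter removed, a reading that no source used here states. In both Veh and T0 no number was missing between the neighbours of this region, so on that reading no called peak had been removed there. The Il10 region at +30372 bp was in LPS alone, at percentile 16.3. Inside the gene, the intronic regions at +1279 and +1870 bp were in all 4 lists, and the first, nearest to the 5′ end, stood at 30.4 in Veh and 11.5 in T0, and at 21 in LPS and 15.2 in T0-LPS. Il10 thus had LPS-opened regions outside the gene, while the regions within it were found under every condition.

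Downstream of Il10, in Mapkapk2, which encodes a kinase that acts with p38 MAP kinase on mRNAs such as those bound by tristetraprolin, 3 regions moved by 20 percentile points or more between Veh and LPS. The region at +64516 bp went from 49.6 in Veh and 37.8 in T0 to 72.6 in LPS and 76.0 in T0-LPS. The region at +72570 bp was weak in Veh (9.43), missing from T0, and at 58.9 in LPS and 55.0 in T0-LPS. The region at +77172 bp, 809 bp from the Mapkapk2 start, stood lower with LPS, at 45.3 in Veh and 49.1 in T0, and at 10.4 in LPS and 1.02 in T0-LPS. The start of Mapkapk2 itself (+77941 bp) was in all 4 lists, between 42.0 and 77.0. Neighbouring regions therefore moved in opposite directions.

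At Il4ra, the promoter region (+102 bp) was nearly level, at 51.4 in Veh and 44.6 in T0, and at 46.2 in LPS and 49.8 in T0-LPS. The marked changes lay beyond the gene, near and within Il21r, which encodes the IL-21 receptor. The region at +51308 bp, 66 bp from the Il21r start, stood at 68.1 in Veh and 62.9 in T0, and at 12.3 in LPS and 7.30 in T0-LPS. Within Il21r, +61639 and +66070 bp also stood lower with LPS, from 63.8 to 42.4 and from 74.3 to 52.2. The other way, +71330 bp was at 0.989 in Veh and 7.84 in T0, and at 44.5 in LPS and 33.9 in T0-LPS, and +55880 bp was in LPS alone, at 19.6. Around Il4ra, then, regions that gained and regions that lost rank with LPS lay within the same neighbouring gene.

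Socs3 had the most LPS-opened regions of the 8 genes, 4 of them upstream. Of these, -49148 and -17231 bp lay in introns of Pgs1, and the nearest protein-coding start to -8005 bp was also that of Pgs1. Only at -6182 bp was it that of Socs3. The region at -8005 bp stood at 65.0 in LPS and 57.1 in T0-LPS, at -6182 bp at 19.7 and 18, and at -17231 bp at 12.0 and 11.5. In all 3 no peak number was missing at that place in Veh or in T0. The regions at -49148 bp (percentile 1.06) and +30155 bp (4.54) were in LPS alone, close to the weakest peaks of that list. The Socs3 promoter region at +805 bp from the 5′ end of the gene record, 56 bp from the nearest protein-coding start, stood at 39.5 in Veh and 2.00 in T0, and at 65.0 in LPS and 72.1 in T0-LPS. It therefore ranked among the weakest peaks with T0 alone, and higher than in Veh in both lists with LPS. Counted among the regions in all 4 lists only, so that each list ranks the same regions, its percentile was 21.1 in Veh and 0.944 in T0, and 56.8 in LPS and 67.6 in T0-LPS. That set is itself chosen by having a peak in T0.

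Around Socs1, no region was LPS-opened. The promoter region (-206 bp) stood at 37.3 in Veh and 18.1 in T0, and at 37.1 in LPS and 26.7 in T0-LPS, and the region at +385 bp lay between 22.5 and 37.0 in the 4 lists. The region at -989 bp had a peak in Veh (27), T0 (16.1) and T0-LPS (19.3) and none in LPS, with no number missing there. At +71922 bp, in an intron of Clec16a, the percentile was 50.4 in Veh and 27.6 in T0, against 9.29 in LPS and 10.8 in T0-LPS. The strongest region of Socs1, at +30770 bp, stayed between 90.6 and 94.3.

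Dusp1 was the member with the fewest missing peaks, with 9 of its 10 regions in all 4 lists. Its gene record (chr17:26505590-26562128, minus strand) starts 53609 bp upstream of its principal transcript start at 26508519. The region at the 5′ end of the record (+660 bp) lay 21 bp from a start of the neighbouring gene Ergic1. It stood at 54.0 in Veh and 36.1 in T0, and at 51.3 in LPS and 53.2 in T0-LPS. The region at the principal start (+53658 bp) was weak in every list, at 4.05, 13.4, 10.6 and 9.86 in the same order. Upstream of the principal start, the region at +47235 bp stood at 69.1 in Veh and 54.0 in T0, and at 47.6 in LPS and 66.8 in T0-LPS. It was the only region of this gene that ranked at least 20 points lower in LPS than in Veh. By any amount, 6 of the 9 regions with both peaks stood lower in LPS (66.7%, against 60.2% of all regions). The windows around the 2 starts differ in 3 regions, and around the principal start, too, no Dusp1 region was LPS-opened.

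Dusp2, the other phosphatase gene, had 5 regions. The promoter region (+7 bp) stood at 32.8 in Veh and 29.8 in T0, and at 49.1 in LPS and 46.7 in T0-LPS. The neighbouring region at -721 bp, with its NF-kB and STAT matches, was weak in Veh (7.53), missing from T0 with no number absent there, and at 38.3 in LPS and 30.4 in T0-LPS. The region at -13068 bp was in LPS alone, at 9.91. All 3 regions whose nearest start is that of Dusp2 thus stood higher in LPS than in Veh, or were found with LPS only.

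Zfp36 lies in a gene-dense stretch, and the nearest start was its own at only 5 of 19 regions. The region at -1807 bp, with NF-kB and PU.1 matches, stood at 1.48 in Veh, was missing from T0, and stood at 45.6 in LPS and 43.1 in T0-LPS. Its upstream neighbour at -2910 bp was level, at 66.3, 68.6, 66.5 and 62.9 in Veh, T0, LPS and T0-LPS. The region at +962 bp, 36 bp from the nearest Zfp36 start, stood at 16.6 in Veh and 12.0 in T0, and at 3.31 in LPS and 34.9 in T0-LPS, the only one of the 108 that ranked at least 20 points higher in T0-LPS than in LPS. Ranked among the regions in all 4 lists, Dusp1 +47235, Bcl3 -1513 and Zfp36 +29607 bp did so as well, by 25.3, 24.2 and 21.2 points, beside 25.4 for Zfp36 +962 bp. The LPS-opened regions of this window were farther off, at -87336 bp (21 in LPS and 4.93 in T0-LPS) and at -64530 bp in Samd4b (14.7 and 25).

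Bcl3 held the widest change. The region at -22015 bp stood at 18.4 in Veh and 5.81 in T0, and at 85.3 in LPS and 85.1 in T0-LPS. The intronic region at +5117 bp went from 29.2 in Veh and 24.1 in T0 to 63.2 in LPS and 63.1 in T0-LPS, and the region at -9279 bp from 34.9 and 29.3 to 55.0 and 55.8. Both lists with LPS thus ranked these 3 regions above both lists without it, and nearly alike with and without T0. At the Bcl3 promoter, the region at -85 bp was in LPS (21) and T0-LPS (14.1) only, and the region at -864 bp stood at 51.0 in Veh and 30.1 in T0, and at 16.2 in LPS and 26.7 in T0-LPS. A further LPS-opened region at +18865 bp was in LPS alone, at 18.4. At -99431 bp, near Pvr, the percentile was 36.5 in Veh, 47.5 in LPS and 21.4 in T0-LPS, with no peak in T0, and this was the only region that ranked at least 20 points lower in T0-LPS than in LPS.

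**Figure D2:**
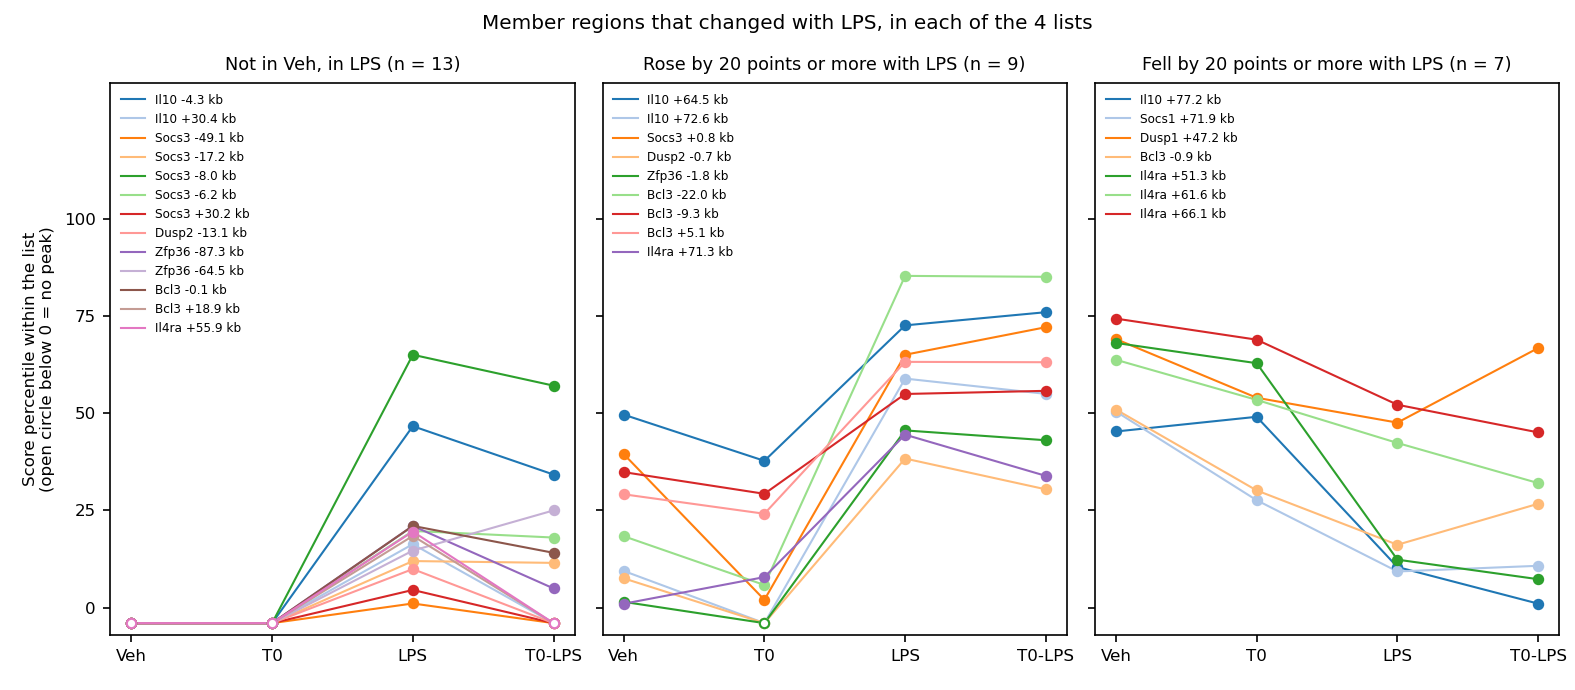
Score percentile within each list (y axis) in the 4 pooled lists (x axis) for the member regions that were LPS-opened (left), ranked at least 20 points higher in LPS than in Veh (middle) or at least 20 points lower (right), with open circles below 0 for no peak. Lines join the values of 1 region and are no time course. None of the 13 LPS-opened regions, which lack a Veh peak by definition, had a peak in T0. Over all regions with a T0 peak, only 0.729% lacked one in Veh. Bcl3 at -22015 bp, with 85.3 in LPS, is the highest of the middle panel.

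Of the 87 regions with a peak in both Veh and LPS, 9 (10.3%, interval 5.54 to 18.5) ranked at least 20 points higher in LPS, against 3.92% of all regions, and 7 (8.05%) at least 20 points lower, against 9.14%. The 9 raised regions lay at Bcl3 (3), Il10 (2) and Socs3, Dusp2, Zfp36 and Il4ra (1 each). The 7 lowered regions lay at Il4ra (3) and Il10, Socs1, Dusp1 and Bcl3 (1 each). The median difference was -0.150 points (quartiles -6.38 and 9.22) over the 87, against -2.01 over all regions. Over the 76 in all 4 lists, ranked among such regions only, it was 2.88 against 0.0738, and all 7 such regions of Socs3 stood higher with LPS. LPS-closed regions (a peak in Veh, none in LPS) numbered 8 of 95 (8.42%), against 13.0% of all. They included Il10 +6176 bp, Socs1 -989 bp and Socs3 -4871 bp, and each of the 8 stood at percentile 36.1 or lower in Veh.

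**Figure D3:**
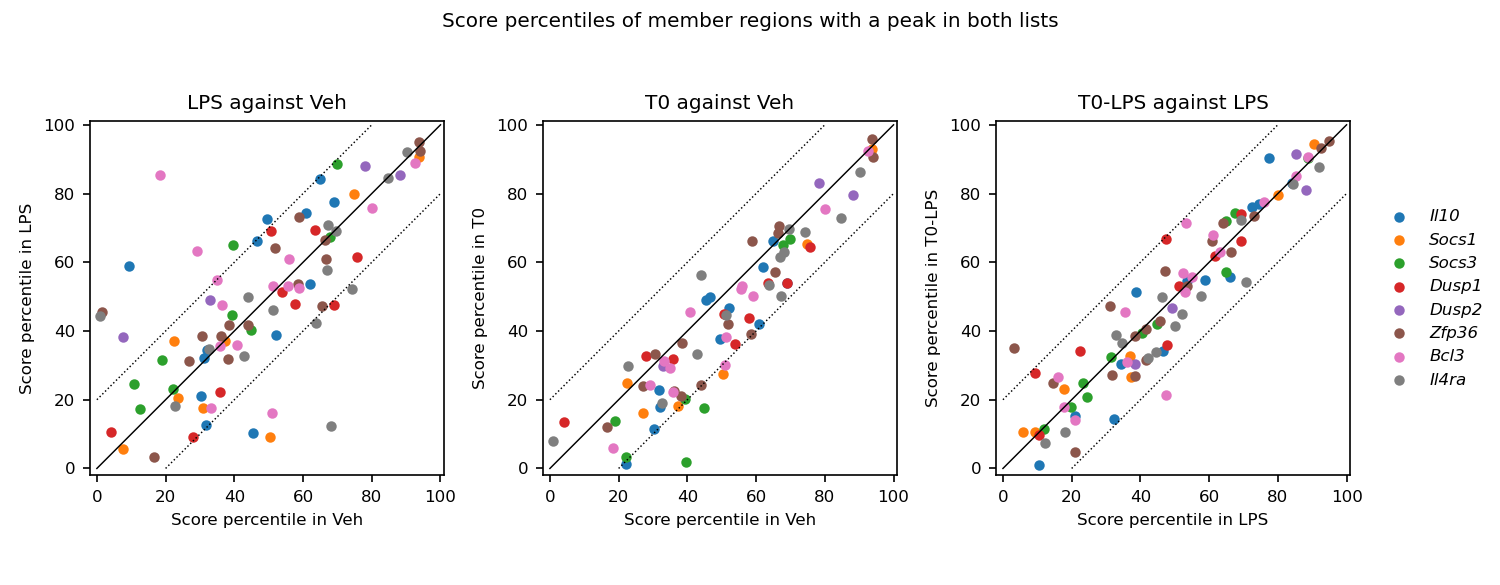
Score percentiles of member regions with a peak in both lists compared, coloured by gene, with LPS against Veh (87 regions), T0 against Veh (79) and T0-LPS against LPS (91), both axes running from 0 to 100 and dotted lines at differences of 20 points. Most of the points of T0 against Veh lie below the diagonal (62 of 79, 78.5%, against 77.1% of all regions), and points of T0-LPS against LPS lie close to it on both sides (44 above, 47 below).

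In the lists as deposited, T0 went with lost peaks at the 8 genes and no gained one, and the T0 list was the shortest of the 4. T0-closed regions (a peak in Veh, none in T0) numbered 16 of 95 (16.8%), against 18.1% of all regions, so the members were near the background. They lay at Il10, Socs1 and Socs3 (3 each), Zfp36 and Il4ra (2 each), and Dusp1, Dusp2 and Bcl3 (1 each). No region was T0-opened: 0 of 79, which allows a share of up to 3.80%, against 0.729% of all. With the lists cut to equal length, 6 of 83 were T0-closed, against 7.70% of all, and 3 of 80 were T0-opened, against 5.76%. Lists of equal length bring losses and gains closer together by construction, so this step cannot show why the T0 list was shorter. With scores of at least 100 only, 2 of 75 were T0-opened, against 0.626%. At 12 of the 16 no number was missing in T0.

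The T0-closed regions were among the weaker peaks of Veh, between percentiles 1.09 and 36.5. Of the 21 member regions under percentile 25 in Veh, 12 (57.1%) were T0-closed, against 62.1% of all regions that weak. The strongest were Bcl3 -99431 bp at 36.5, Il10 +33504 bp at 36.1 and Il10 +14136 bp at 31.2, the last of which stood at 32.2 in LPS and 14.4 in T0-LPS. In T0, numbers were missing around Il10 +33504 bp. Of the 16, 10 had a peak in LPS and 8 in T0-LPS, and 6 were in Veh alone. No share over all T0-closed regions stands beside these counts, so they do not set the members apart. Il10 +72570 bp, Dusp2 -721 bp and Zfp36 -1807 bp were T0-closed without LPS, ranked at least 20 points higher in LPS than in Veh, and each had a peak in T0-LPS. In Veh they stood at 9.43, 7.53 and 1.48, among the regions under percentile 25.

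Among the 79 regions with a peak in both Veh and T0, 0 ranked at least 20 points higher in T0 (0.0762% of all did so) and 5 (6.33%) at least 20 points lower, against 10.4% of all. The 5 were Socs3 +805 and -20133 bp, Socs1 +71922 bp, Il10 +6176 bp and Bcl3 -864 bp. The median difference was -5.58 points for the members and -5.58 for all regions. Ranked among the regions in all 4 lists only, the medians were 0.577 and 0.131, and 39 of 76 member regions stood higher with T0 and 37 lower. On that base 1 member region, the Socs3 promoter, stood at least 20 points lower (2.54% of all regions did so) and 1, Il4ra +49823 bp, at least 20 points higher (1.93% of all), from 26.4 to 51.2. Peaks of the same regions were narrower in T0 than in Veh at 80.5% of 77 member regions and at 87.6% of all.

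In LPS-treated cells, gains and losses of peaks with T0 at the 8 genes were near the shares of all regions. A peak was in LPS and not in T0-LPS at 9 of 100 regions (9%), against 9.97% of all, and in T0-LPS and not in LPS at 2 of 93 (2.15%), against 3.37%. The 2 gained were Il10 +6176 bp (percentile 2.30) and Socs1 -989 bp, both of which also had peaks in Veh and T0. With lists of equal length, 6 of 91 were gained, against 6.09% of all. Among the 91 regions in both lists, 1 (1.10%) ranked at least 20 points higher in T0-LPS, against 0.929% of all, and 1 (1.10%) at least 20 points lower, against 4.36%. The median difference was -0.237 points for the members and -1.76 for all regions, or 2.73 and 0.0586 when ranked among the regions in all 4 lists. On that base 4 of 76 ranked at least 20 points higher, against 2.23% of all, and 0 lower, against 2.39%.

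Of the 13 LPS-opened regions, the 7 that also had a peak in T0-LPS stood at percentiles 12.0 to 65.0 in LPS, and the 6 without one (46.2%, against 47.0% of all LPS-opened regions) at 1.06 to 19.6, and the 2 ranges overlapped. Those without one were Il10 +30372, Socs3 -49148 and +30155, Dusp2 -13068, Bcl3 +18865 and Il4ra +55880 bp. At 4 of them no number was missing in T0-LPS. In Veh no number was missing at 10 of the 13 LPS-opened regions. The exceptions were Socs3 -49148, Dusp2 -13068 and Bcl3 +18865 bp. Under percentile 25 in LPS, 6 of 11 member regions (54.5%) and 59.1% of all LPS-opened regions had no peak in T0-LPS. The 9 regions raised by LPS all had a peak in T0-LPS, with a median difference from LPS of -0.237 points (range -10.6 to 7.09), against -6.91 over 1176 such regions in all. In both sets the LPS percentile that chose the regions is also the baseline of this difference, so it cannot show whether they resisted T0.

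**Figure D4:**
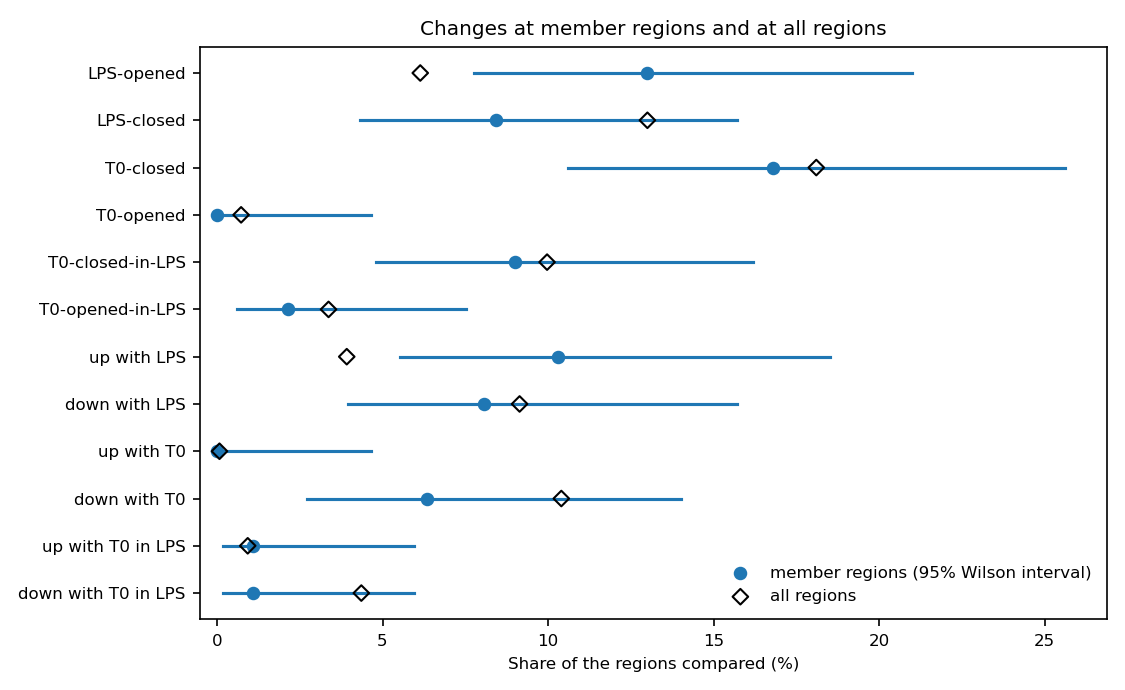
Share of the regions compared (x axis, %) that met each definition of change (y axis), for member regions (filled circles, with 95% Wilson intervals for counting error) and for all regions (open diamonds). The interval lies above the share of all regions for LPS-opened (13.0% against 6.14%) and for at least 20 points higher with LPS (labelled up with LPS, 10.3% against 3.92%). Socs3 held the most LPS-opened regions and Bcl3 the most raised ones, and the intervals treat neighbouring regions of the same gene as independent.

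Motifs were searched as consensus letters on both strands of the 200-base windows, and a match is a description of the letters, not a binding site. NF-kB matches were in 14 of 108 windows (13.0%, interval 7.88 to 20.6), against 4.32% of all regions. Of the 13 LPS-opened windows 5 had one (38.5%, interval 17.7 to 64.5), against 17.9% of all LPS-opened regions, and over whole regions the counts were 7 of 13 (53.8%) and 21.2%. Of the 9 LPS-raised windows 4 had one (44.4%), against 21.2% of all LPS-raised regions, and of the 7 LPS-lowered windows 0, against 1.04%. The other NF-kB matches lay at Il10 +18449, Dusp1 +58995 and +64520, Zfp36 -12573 and Bcl3 -1513 bp, all in the 4 lists. Il10, both DUSP genes, Zfp36, Bcl3 and Il4ra thus had at least 1 NF-kB match in a window, and Socs1 and Socs3 had none.

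STAT words (TTCNNNGAA) were in 14 windows (13.0%, interval 7.88 to 20.6), against 5.50% of all regions. They included the Socs3 promoter and 3 further Socs3 regions, among them the LPS-opened -6182 bp, and 3 regions of Zfp36. AP-1 words (TGACTCA or TGAGTCA) were in 20 windows (18.5%), against 13.6% of all, 5 of them at Il10, and the PU.1 word (GAGGAAGT) was in 11 (10.2%), against 8.70%. C/EBP words (TTNCNNAA) were in 26 (24.1%, interval 17 to 32.9), against 36.0%. The IRF consensus was in 5 (4.63%, against 3.84%), STAT6 in 3 (2.78%, against 4.92%) and CArG in 3 (2.78%, against 1.12%). CTCF was in 1 (0.926%, against 0.885%). The CRE word TGACGTCA was in 1 (0.926%, against 1.14%), at the Dusp1 principal start.

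The nuclear receptor half-site AGGTCA was in 18 windows (16.7%, interval 10.8 to 24.8), against 11.9% of all. It was in 5 of the 13 LPS-opened windows (38.5%, interval 17.7 to 64.5), against 12.4% of all LPS-opened regions. By presence in T0-LPS, it was in 4 of the 6 regions without a peak there and 1 of the 7 with one. Over all LPS-opened regions the same shares were 12.6% and 12.3%, close to each other. Of the T0-closed windows 2 of 16 (12.5%) had one, against 11.6% of all T0-closed regions. DR4 matches with up to 2 mismatches were in 3 windows (2.78%, against 1.89%), at Socs3 +9992, Dusp2 -88315 and Il4ra -48527 bp, and a DR4 can contain a half-site. Socs3 +9992 bp stood at 22.0 in Veh and 3.37 in T0, and at 23.2 in LPS and 25 in T0-LPS, Dusp2 -88315 bp at 88.3 in Veh and 79.7 in T0, and Il4ra -48527 bp at 67.3 and 50.2. Ranked among the regions in all 4 lists, the difference of T0 from Veh was -3.84, -7.24 and -12.1 points in the same order. On that base Socs3 +9992 bp stood at 5.51 in Veh and 1.67 in T0, so it had little room to fall. In the full lists its difference, -18.65 points, was the largest fall of the 3.

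Relatives and pathway partners of the 8 genes gave a setting for these counts. Of 34 such genes, 21 had an LPS-opened region within 100 kb, 29 a T0-closed one and 0 a T0-opened one, and of 10 housekeeping genes 1, 7 and 1. Over all protein-coding genes with a region, 29.5% had an LPS-opened one, 63.2% a T0-closed one and 4.48% a T0-opened one, against 61.8%, 85.3% and 0% of the 34, which had a median of 12 regions each where protein-coding genes had 7. By family, LPS-opened regions were found at 4 of 6 further SOCS genes, 6 of 9 further MAP kinase phosphatases, 2 of 3 zinc-finger decay factors, 6 of 10 receptor chains, JAKs and STATs of the IL-10 and IL-4 pathways, and 3 of 6 other TLR feedback genes. Their share among regions with an LPS peak ran from 6.42% in the receptor, JAK and STAT list to 11% in the phosphatases, and was 1.03% in the housekeeping list. The share over all regions, 6.14%, is below that of each feedback family, and closest to that of the receptor, JAK and STAT list. The gene with the most was Tnip1, which encodes an A20-binding inhibitor of NF-kB, with 5 of 15 regions, as many as Socs3. Cish, a STAT5 target of the SOCS family, the phosphatase genes Dusp4 and Dusp16, the stress-induced repressor gene Atf3, the kinase gene Tyk2 and Zc3h12a, which encodes the mRNA-cleaving protein regnase-1, had 2 each.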

How the data were processed

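ATAC-seq was done on 16 libraries, 4 per group, named Veh, T0, LPS and T0-LPS after the labels. The authors trimmed reads with cutadapt, aligned them with Bowtie2 (build mm10 per the labels), dropped PCR duplicates using SAMtools, and ran MACS2 (q 0.001, no model, shift 88, extension 177) on the pooled libraries of each group, keeping peaks at macrophage enhancers. The positive shift places reads downstream of the cut site, which can move peak edges. The deposited value is a score per peak, read as that of MACS2, with no normalization for depth, so scores were turned into percentiles within each list. Depth per library is unknown.

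With Python 3.11.15, numpy 2.4.6 and GENCODE M21, peaks overlapping by at least 1 bp were merged, and a region took the highest score of its peaks in a list. Motifs were scanned in RefSeq GRCm38 sequence on both strands. Intervals are Wilson 95% intervals, and a count of 0 allows 3. The code was tested on simulated lists. The genes, motifs and lists were chosen with earlier results of these data known. Regions named for each gene were those nearest its 5′ end, LPS-opened, missing from a list with a percentile of at least 25 elsewhere, or with the largest shift of at least 20 points in a comparison. Other regions and Zc3h12a were named after their values were seen, where a count fell to few. Alternatives changed the window, the start, the score minimum, list length, overlap, shift and percentile base. The principal start was added after seeing the data.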

Additional observations from a re-analysis of the deposited data

How the results depend on the processing

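No paired analysis was possible because each group is 1 list pooled from its 4 libraries, and for the same reason no replicate could be left out. The counts of LPS-opened regions (10 to 17) and of genes with one (4 to 7) stayed within 1.5 times the main counts of 13 and 6 under every alternative run on them, and so did the count of LPS-closed regions. The shares over all moved too. LPS-opened regions were 17 of 93 with lists of equal length (all 9.30%), 15 of 97 with scores of at least 100 (5.99%) and 10 of 59 with a 50 kb window (6.14%). Genes with one were 7 of 8 (37.7%), 7 of 8 (27.1%) and 4 of 8 (18.6%) in the same order. LPS-closed regions were 7 of 83 (9.94%), 9 of 91 (13.9%) and 7 of 56 (13.0%). Other counts moved further, and each is given with the share over all regions under the same setting. With a window of 50 kb there were 66 member regions, of which 10 of 56 were T0-closed (all 18.1%), 5 of 59 lost with T0 in LPS (9.97%), 2 of 49 lower with LPS (9.14%) and 0 of 54 lower with T0 in LPS (4.36%). With scores of at least 100 only, 2 of 75 were T0-opened (0.626%), 9 of 73 lower with T0 (12.1%), and of 86, 0 higher (0.958%) and 2 lower (5.67%) with T0 in LPS. With lists cut to equal length, 6 of 83 were T0-closed (7.70%), 3 of 80 T0-opened (5.76%), 6 of 91 gained with T0 in LPS (6.09%), 2 of 77 higher (2.19%) and 1 lower (2.53%) with T0, and 3 of 85 higher with T0 in LPS (2.47%). Where a peak had to cover 50% of its region, 1 of 74 was T0-opened (1.06%). With percentiles among regions in all 4 lists, of 76, 1 was higher (1.93%) and 1 lower (2.54%) with T0, and 4 higher (2.23%) and 0 lower (2.39%) with T0 in LPS. With a shift of 10 points, 21 of 87 were higher (11.4%) and 18 lower (25.2%) with LPS, 1 and 29 of 79 with T0 (2.01% and 34.1%), and 11 and 12 of 91 with T0 in LPS (7.36% and 19.3%). NF-kB matches over whole regions were found in 23 of 108 (8.46%). The cause of each was not tested. With the principal Dusp1 start, 109 regions gave 13 LPS-opened and 17 T0-closed. Pooled lists carry no replicate error, and a missing peak can be one just under the calling threshold.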
